A study of Mus musculus with 8 samples.

Results

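The genes described here are 10 of the 49315 genes counted in this RNA-Seq series, chosen among those that hold a cell in G1 or let it leave. They are the D-type cyclins Ccnd1, Ccnd2 and Ccnd3, their partner kinases Cdk4 and Cdk6, and the retinoblastoma gene Rb1. Of the CDK inhibitors, Cdkn1b, Cdkn1c, Cdkn2c and Cdkn2d are among them, and sums over inhibitors cover only these. All 10 genes were picked by symbol, and each symbol matched 1 Ensembl gene through GENCODE M21. The cells were bone marrow-derived macrophages (BMDMs), primary macrophages grown from the marrow of C57BL/6 mice in medium with 10 ng/ml of mouse M-CSF, the growth factor on which macrophages depend. All cultures were transfected with 25 nM of a gapmeR, an antisense oligonucleotide that recruits RNase H to its target RNA. In 4 libraries the gapmeR was a negative control (replicates 2, 5, 6 and 7), and in 4 it targeted the nuclear lncRNA MAARS (replicates 9, 11, 13 and 15). The labels name no engineered allele, and give neither the age of the mice nor whether the cultures came from separate animals, so p-values measure the spread between these libraries. No untransfected culture and no 2nd MAARS gapmeR was among the samples analysed here.

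In G1, D-type cyclins bind CDK4 or CDK6, and the active kinases phosphorylate the retinoblastoma protein, which then releases E2F transcription factors that switch on genes of S phase. INK4 proteins such as p18INK4c and p19INK4d bind the CDK4 and CDK6 subunits, whereas CIP/KIP proteins such as p27Kip1 and p57Kip2 bind cyclin-CDK complexes and above all restrain CDK2. D-type cyclins were among the genes first found in macrophages stimulated with M-CSF, and BMDMs keep dividing while M-CSF is present. The study examined how MAARS acts through HuR, an RNA-binding protein encoded by Elavl1.

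The targeted RNA checked the labels, since MAARS (Gm14461) fell from 13.1 ± 1.36 to 6.82 ± 0.845 CPM (read counts divided by library size, SD, n = 4 per group) with no overlap between groups. Each library held 19287279 to 24541205 counts on genes, and all 4 MAARS gapmeR libraries were deeper than all 4 control libraries, so CPM here are normalized with TMM factors. The 8 macrophage markers summed to 13500 to 16500 CPM in control and 16000 to 18800 CPM in MAARS gapmeR libraries. Most of that sum was Lyz2, which rose by 0.49 on the log2 scale. Of the 8 markers, 3 rose and 4 fell in the test given below, which called 45.4% of all genes tested. Fcgr1 fell by 2.09 on the log2 scale. Summed markers of other cells were 7.49 to 17.4 and 4.49 to 6.57 CPM for progenitors, 135 to 255 and 163 to 200 CPM for neutrophils, 1.18 to 2.6 and 1.32 to 1.67 CPM for dendritic cells, 0.204 to 0.54 and 0.0946 to 0.368 CPM for lymphocytes, and 440 to 1010 and 694 to 1200 CPM for stroma. Among them Cd34 fell (log2 fold change -2.16) and Mmp8 rose (0.67), and nearly all of the stromal sum came from Col1a1 and Col1a2. These are bulk libraries, in which a change in the number of cells that express a gene and a change in RNA per cell cannot be told apart.

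After MAARS knockdown, 3 of the 10 G1 genes rose, 1 fell, and 6 did not pass the test. The 3 that rose all restrain the cycle: Cdkn2c (p18INK4c), Rb1 and Cdkn1b (p27Kip1). The 1 that fell, Ccnd1 (cyclin D1), drives it. Cdk4, Cdk6, Ccnd2 and Ccnd3 did not pass, nor did the inhibitors Cdkn1c and Cdkn2d. Cdkn1c was lower on average, with the lowest log2 fold change of the 10 genes (-0.80), and Cdkn2d was higher (0.21). The test was edgeR's quasi-likelihood test with adjustment over all 13051 genes tested, at an adjusted p under 0.05. It called 45.4% of all genes, 21.3% as higher and 24.0% as lower, so 4 of 10 is close to the share among all genes. In 3 of the 10 (Cdkn1b, Cdkn2c and Rb1) the groups of libraries did not overlap, against 42.1% of all genes tested. The median log2 fold change of the 10 was 0.00, and that of all genes 0.01. Upper-quartile factors turned the split over all genes from 2782 higher and 3137 lower to 3622 higher and 2379 lower, with no change in the counts for the 10 genes other than Cdkn2d, described with its values.

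**Figure D1:**
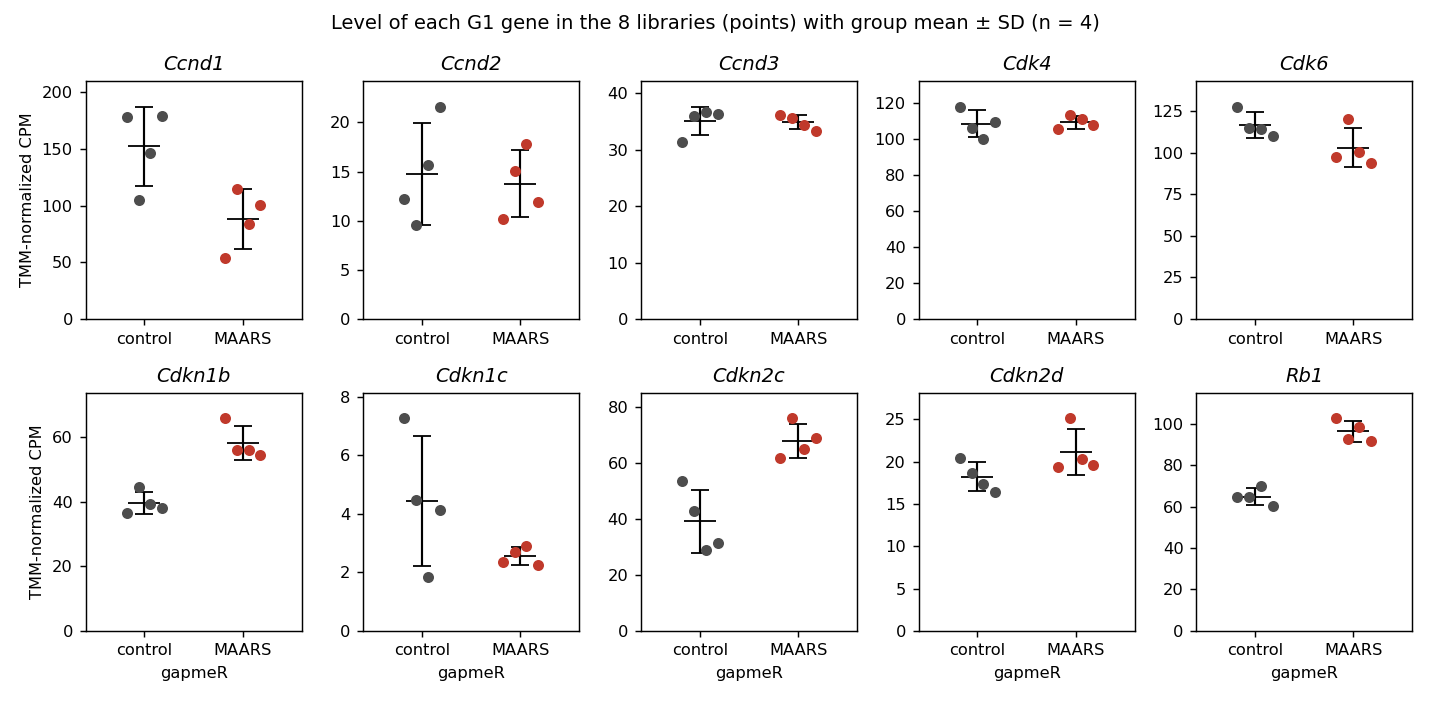
TMM-normalized CPM (y axis, from 0) of each of the 10 G1 genes in the 4 control gapmeR (grey) and 4 MAARS gapmeR (red) libraries, with horizontal and vertical bars for the mean ± SD. The groups separate without overlap for Cdkn1b, Cdkn2c and Rb1, and Ccnd1 is lower on average with 1 MAARS gapmeR library (114.6 CPM) above 1 control library (104.7 CPM).

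**Figure D2:**
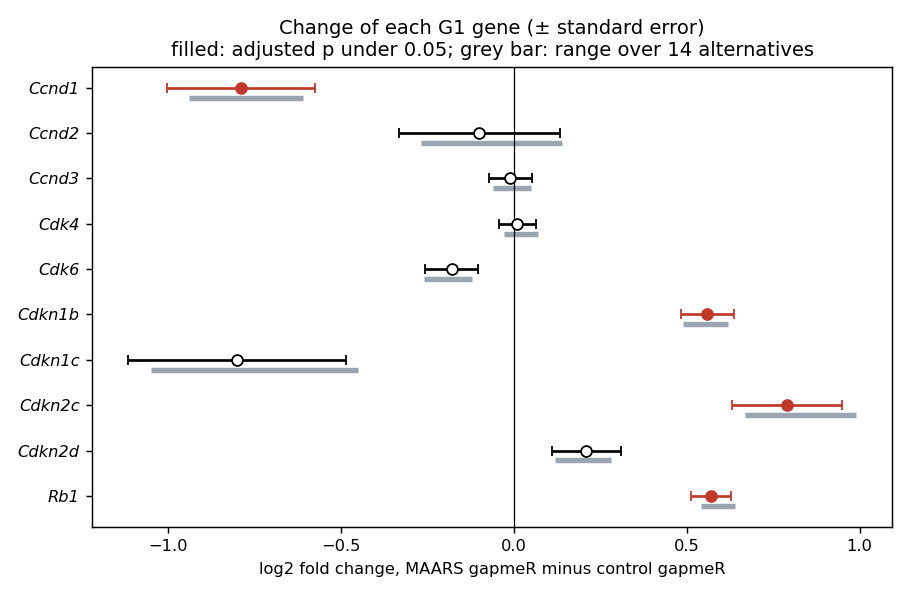
The log2 fold change (x axis, MAARS gapmeR minus control gapmeR) of each of the 10 genes with its standard error, filled where edgeR's adjusted p was under 0.05, and in grey the range over 14 alternative analyses. The grey bars of Ccnd1, Cdkn1b, Cdkn2c and Rb1 stay on 1 side of 0, whereas those of Ccnd2, Ccnd3 and Cdk4 cross it.

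Of the 10 genes, Ccnd3, Cdk4, Cdk6, Cdkn1b, Cdkn2c and Cdkn2d had a promoter window in the RefSeq table used (GRCm38.p6), and Ccnd1, Ccnd2, Cdkn1c and Rb1 are named only. Shown are the 250 bases before a RefSeq transcript start of Cdkn1b and of Cdkn2c, the inhibitors that rose, to set them beside that of Cdk4, a gene that did not pass the test. Capitals mark motifs, which were chosen with these sequences in view: TTCCCGC (E2F), CACGTG (an E-box bound by bHLH factors), CCAAT (bound by NF-Y), TGTTTAC (forkhead factors such as FOXO) and TTTGAA (the CHR element of G2 and mitosis genes).
Cdkn1b, plus strand, chr6:134920151-134920400: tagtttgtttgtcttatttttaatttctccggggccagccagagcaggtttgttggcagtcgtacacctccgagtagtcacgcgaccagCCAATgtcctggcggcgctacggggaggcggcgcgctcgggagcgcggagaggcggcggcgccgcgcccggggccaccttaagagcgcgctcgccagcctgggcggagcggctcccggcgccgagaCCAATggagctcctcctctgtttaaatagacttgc
Cdkn2c, minus strand, chr4:109666757-109667006: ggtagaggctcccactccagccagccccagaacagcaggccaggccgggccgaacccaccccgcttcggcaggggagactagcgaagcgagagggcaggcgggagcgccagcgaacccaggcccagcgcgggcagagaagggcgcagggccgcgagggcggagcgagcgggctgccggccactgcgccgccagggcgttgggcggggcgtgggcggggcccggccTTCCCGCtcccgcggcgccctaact
Cdk4, plus strand, chr10:127063285-127063534: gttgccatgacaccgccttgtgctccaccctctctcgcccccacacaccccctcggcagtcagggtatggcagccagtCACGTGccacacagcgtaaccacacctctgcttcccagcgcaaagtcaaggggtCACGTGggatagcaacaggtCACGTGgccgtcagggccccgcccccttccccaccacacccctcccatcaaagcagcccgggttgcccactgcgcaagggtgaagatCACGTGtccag
Each motif was searched on both strands, no match overlapped another in these windows, and positions count back from the base before that RefSeq start, -1. For Cdkn2c the GENCODE gene begins farther upstream, so this window lies inside the bounds given for Cdkn2c with its values. Cdkn1b held CCAAT at -161 to -157 and at -35 to -31. CCAAT occurs in 33.8% of the 32851 windows of this length in the table, and at least 2 copies occur in 10.1%. Among the windows not shown, of genes that did not pass the test, those of Cdkn2d and Ccnd3 held CCAAT too. Another window of Ccnd3 held TGTTTAC, and that of Cdk6 held CACGTG. Cdkn2c held TTCCCGC at -25 to -19, a motif found in 3.82% of windows, and its 2nd window, farther into the gene, held none of the 5 motifs. Cdk4 held CACGTG at -172 to -167, -118 to -113, -98 to -93 and -11 to -6, and 4 or more copies occur in 7 of the 32851 windows, whereas 6.02% hold at least 1. A match is a run of letters and not a measured binding site.

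The D-type cyclins carry the growth factor signal to the cell cycle. Ccnd1, encoding cyclin D1, fell after MAARS knockdown, and Ccnd2 and Ccnd3 did not pass the test. Ccnd1 (chr7:144929931-144939925, minus strand) stood at 178.3, 104.7, 146.5 and 179.0 CPM in control replicates 2, 5, 6 and 7, and at 53.5, 114.6, 83.7 and 100.4 CPM in MAARS gapmeR replicates 9, 11, 13 and 15. Both groups scattered widely, and MAARS gapmeR replicate 11 lay above control replicate 5. The mean went from 152.1 ± 35.1 to 88.1 ± 26.3 CPM (SD, n = 4), a decrease by 42.0% with a log2 fold change of -0.79 ± 0.214 (SE, the standard error, edgeR adjusted p = 0.0113). It stayed past the threshold in all 14 alternatives, with values from -0.94 to -0.61 and adjusted p up to 0.0315. On the opposite strand LTO1 covers 23.4% of the exon bases of Ccnd1, and it fell by less (log2 fold change -0.28, edgeR adjusted p = 0.00534). The strand setting of the counting is not given in the sources used here, so reads in such overlaps cannot be told apart.

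Ccnd2 (chr6:127125162-127152193, minus strand) is the cyclin D used by many lymphoid and myeloid cells. It was at 12.2, 9.53, 15.7 and 21.6 CPM in the control libraries and at 10.2, 15.1, 17.8 and 11.9 CPM in the MAARS gapmeR libraries, in the same order of replicates. The groups lay on top of each other, at 14.8 ± 5.22 and 13.8 ± 3.40 CPM (SD, n = 4), with a log2 fold change of -0.10 ± 0.233 (SE, edgeR adjusted p = 0.747). Its spread followed the summed stromal markers, which read 600, 440, 730 and 1010 CPM in the controls and 694, 887, 1200 and 743 CPM after MAARS knockdown, and the part of stromal cells in it was not tested. Ccnd3 (chr17:47505051-47599691, plus strand), by contrast, was the steadiest of the 3 cyclins. It read 31.3, 36.1, 36.8 and 36.3 CPM with control gapmeR and 36.2, 35.6, 34.4 and 33.4 CPM with MAARS gapmeR. The means were 35.1 ± 2.54 and 34.9 ± 1.26 CPM (SD, n = 4), with a log2 fold change of -0.01 ± 0.0618 (SE, edgeR adjusted p = 0.92).

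The kinases that D-type cyclins activate did not pass the test. Cdk4 (chr10:127063534-127067920, plus strand) was at 117.8, 106.0, 99.95 and 109.2 CPM with control gapmeR and at 105.1, 113.0, 110.7 and 107.5 CPM with MAARS gapmeR. The MAARS gapmeR values all fell inside the range of the controls. Its mean was 108.2 ± 7.43 and 109.1 ± 3.52 CPM (SD, n = 4), and its log2 fold change was 0.01 ± 0.0537 (SE, edgeR adjusted p = 0.878). Tspan31 covers 19.7% of its exon bases on the opposite strand and fell slightly (log2 fold change -0.14, adjusted p = 0.0189 from edgeR).

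Cdk6 (chr5:3341485-3531008, plus strand), known for its part in hematopoietic cells, read 127.6, 114.9, 114.2 and 109.8 CPM in the control libraries and 97.6, 119.9, 100.4 and 94.0 CPM in the MAARS gapmeR libraries. Here 3 of the 4 MAARS gapmeR libraries lay below all controls, and replicate 11 lay above 3 of the 4 controls. The mean was 116.6 ± 7.64 and 103.0 ± 11.6 CPM (SD, n = 4), with a log2 fold change of -0.18 ± 0.0761 (SE, edgeR adjusted p = 0.0753). Without MAARS gapmeR replicate 11 it passed, at -0.26 with an adjusted p of 0.00619 from edgeR, and without the filter on low counts it passed at 0.0448.

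The CIP/KIP inhibitors differed from each other. Cdkn1b, encoding p27Kip1, rose after MAARS knockdown and Cdkn1c, encoding p57Kip2, was lower on average without passing. Cdkn1b (chr6:134920401-134925513, plus strand), which shares no exon base with another gene, stood at 36.4, 44.4, 39.4 and 37.9 CPM in control replicates 2, 5, 6 and 7 and at 65.8, 56.1, 56.1 and 54.5 CPM in MAARS gapmeR replicates 9, 11, 13 and 15. No control reached the lowest MAARS gapmeR library. The mean went from 39.5 ± 3.48 to 58.1 ± 5.20 CPM (SD, n = 4), an increase by 47.1% with a log2 fold change of 0.56 ± 0.0767 (SE, edgeR adjusted p = 0.000164). In all 14 alternatives it remained called, between 0.49 and 0.62. The paper reported the opposite direction, with p27 expression decreased in BMDMs by MAARS knockdown. The reason for this difference was not tested.

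Cdkn1c (chr7:143458339-143461050, minus strand) is imprinted, with expression from the maternal copy, and it is the least counted of the 10 genes. Its raw counts were 142, 88, 34 and 84 in the control libraries and 50, 68, 63 and 52 in the MAARS gapmeR libraries. In CPM these were 7.27, 4.48, 1.84 and 4.13 against 2.37, 2.71, 2.90 and 2.25. Thus 3 controls lay above all MAARS gapmeR libraries and control replicate 6 lay below them all. The mean was 4.43 ± 2.23 and 2.56 ± 0.297 CPM (SD, n = 4), with a log2 fold change of -0.80 ± 0.315 (SE, edgeR adjusted p = 0.0588). Without control replicate 6 it passed at -1.05 (adjusted p = 0.0033 from edgeR), and without control replicate 2 it was -0.45. DESeq2, at an adjusted p of 0.0368, and edgeR without a filter on low counts, at 0.00833, called it too.

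Of the INK4 inhibitors, Cdkn2c had the steepest increase among the 10 genes and Cdkn2d a small one that did not pass. Cdkn2c (chr4:109660876-109667189, minus strand), encoding p18INK4c, was at 53.4, 42.7, 28.9 and 31.4 CPM with control gapmeR and at 61.5, 75.9, 64.9 and 68.8 CPM with MAARS gapmeR. The controls spread over a wider range than the MAARS gapmeR libraries, but no control reached them. The mean went from 39.1 ± 11.2 to 67.8 ± 6.17 CPM (SD, n = 4), an increase by 73.4% with a log2 fold change of 0.79 ± 0.159 (SE, edgeR adjusted p = 0.00191). It was called in all 14 alternatives, from 0.67 to 0.99. No exon base of Cdkn2c is shared with another gene. Cdkn2d (chr9:21288410-21291407, minus strand), encoding p19INK4d, read 20.5, 18.7, 17.4 and 16.4 CPM in the controls and 19.4, 25.1, 20.3 and 19.6 CPM after MAARS knockdown. Only MAARS gapmeR replicate 11 stood clear of the controls. Its log2 fold change was 0.21 ± 0.0997 (SE, edgeR adjusted p = 0.103). It passed with upper-quartile factors (0.28, adjusted p = 0.0404) and without control replicate 2 (0.28, adjusted p = 0.0459), both from edgeR. Without MAARS gapmeR replicate 11 it was 0.12 (edgeR adjusted p = 0.307).

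Among the controls Cdkn2c moved with the genes of G2 and mitosis from library to library. The summed level of 15 such genes was 705, 497, 351 and 405 CPM in control replicates 2, 5, 6 and 7, the same order as Cdkn2c. In MAARS gapmeR replicates 9, 11, 13 and 15 it was 844, 1020, 901 and 870 CPM. There the order differed, since replicate 13 had a higher sum than replicate 15 but less Cdkn2c (64.9 against 68.8 CPM). Cdkn1b and Rb1 did not follow that order among the controls: Cdkn1b was lowest in control replicate 2, where the sum was highest, and Rb1 was highest in control replicate 6, where the sum was lowest. The part of dividing cells in the change of Cdkn2c was not tested.

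**Figure D3:**
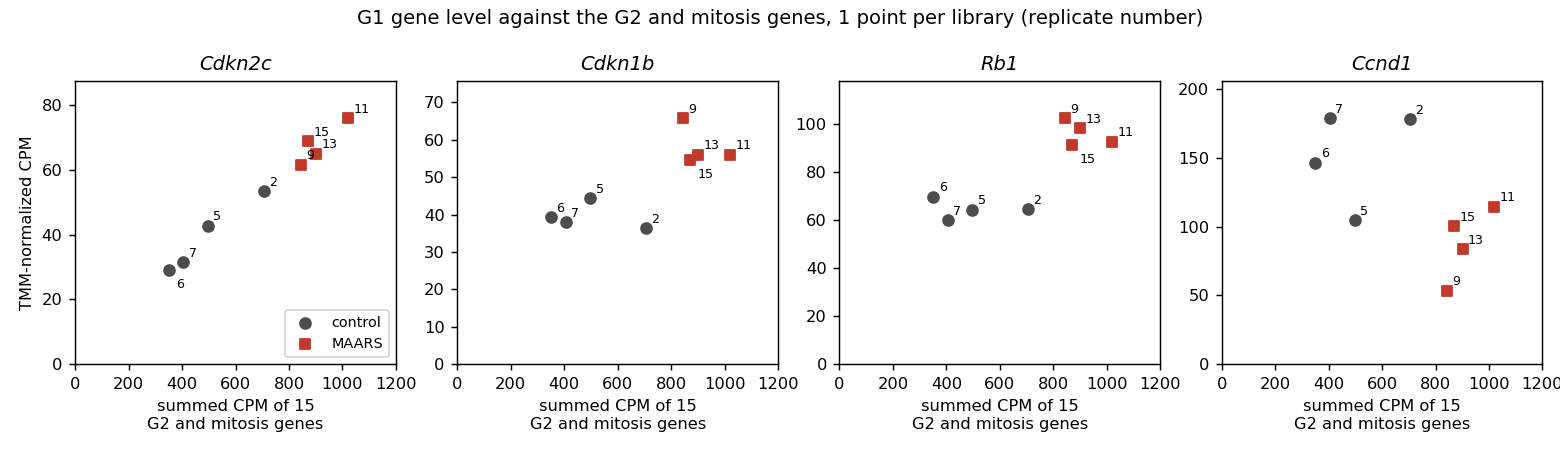
TMM-normalized CPM (y axis, from 0) of Cdkn2c, Cdkn1b, Rb1 and Ccnd1 against the summed CPM of 15 genes of G2 and mitosis (x axis), with 1 point per library, its replicate number, grey circles for control gapmeR and red squares for MAARS gapmeR. Cdkn2c climbs along the x axis also among the controls, from 28.9 CPM at a sum of 351 to 53.4 CPM at a sum of 705, whereas Cdkn1b and Rb1 step up between the groups.

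Rb1 (chr14:73183673-73325822, minus strand), encoding the pocket protein that cyclin D kinases phosphorylate, had the smallest adjusted p of the 10 genes. It stood at 64.6, 64.5, 69.9 and 60.2 CPM in the control libraries and at 102.7, 92.8, 98.4 and 91.5 CPM in the MAARS gapmeR libraries. Both groups were tight and far apart. The mean went from 64.8 ± 3.999 to 96.3 ± 5.20 CPM (SD, n = 4), an increase by 48.7% with a log2 fold change of 0.57 ± 0.057 (SE, edgeR adjusted p = 1.8e-05), and it stayed called in all 14 alternatives between 0.54 and 0.64. Of its exon bases, 14.9% lie under genes of the opposite strand, Lpar6 and Rcbtb2, and both rose (log2 fold changes 0.68 and 0.95, adjusted p = 7.15e-05 and 5.27e-06 from edgeR). Raw counts were 1225 to 1293 for Rb1 in the controls and 2110 to 2332 after MAARS knockdown, beside 3216 to 4004 and 7480 to 8279 for Rcbtb2. The part of such reads in the increase of Rb1 was not tested.

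To ask whether related genes moved by different amounts, the log2 ratio of 6 pairs was taken within each library, which removes the library scaling, and the groups were compared by a two-sided exact permutation test. The smallest p that 4 against 4 libraries allow is 0.0286. Cdkn2c to Cdkn2d reached it: the ratio was 1.38, 1.19, 0.73 and 0.94 in the controls and 1.66, 1.59, 1.68 and 1.81 after MAARS knockdown, a difference of 0.63. Ccnd1 to Ccnd2 differed by -0.74 (exact p = 0.0571) and Ccnd1 to Ccnd3 by -0.80 (exact p = 0.0857). Cdk4 to Cdk6 differed by 0.20 (exact p = 0.0571) and Cdkn1b to Cdkn1c by 1.19 (exact p = 0.0857). For these 5 pairs the p adjusted over the 6 pairs was 0.103, so no difference between paralogs passed after adjustment of the exact test. Ccnd2 to Ccnd3 differed by -0.06 (exact p = 0.8, adjusted p = 0.8). Adjustment over 6 pairs cannot bring a lone ratio with the smallest possible p under 0.05.

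Per length of exon, Cdk4 was the most abundant of the 10 transcripts in both groups. In the controls the order in CPM per kilobase of exon was Cdk4 at 33.3, Ccnd1 at 32.3, Cdkn2c at 14.6, Cdkn2d at 11.6, Rb1 at 10.8, Cdkn1b at 8.68, Cdk6 at 8.34, Ccnd3 at 4.002, Cdkn1c at 2.17 and Ccnd2 at 1.57. The libraries of neighbours overlapped, so that their order is not resolved, for Cdk4 and Ccnd1, for Cdkn2c and Cdkn2d, for Cdkn2d and Rb1, for Cdkn1b and Cdk6, and for Cdkn1c and Ccnd2. After MAARS knockdown the order was Cdk4 at 33.6, Cdkn2c at 25.2, Ccnd1 at 18.7, Rb1 at 16.0, Cdkn2d at 13.4, Cdkn1b at 12.8, Cdk6 at 7.36, Ccnd3 at 3.98, Ccnd2 at 1.46 and Cdkn1c at 1.25. Cdk4 now stood clear of all others, and Cdkn2c lay beside Ccnd1, with overlap between neighbours from Cdkn2c down to Cdkn1b and between Ccnd2 and Cdkn1c. With the longest transcript in place of all exons, Ccnd3 read 9.10 and 9.05 CPM per kilobase and moved up past Cdkn1b in the controls and past Cdk6 after MAARS knockdown.

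Ccnd1 made up most of the D-type cyclin level per length in every library, 88.6, 81.3, 84.2 and 85.5% in the controls and 68.6, 81.1, 75.3 and 80.8% after MAARS knockdown (84.9 ± 3.05% and 76.5 ± 5.88%, SD, n = 4). Over all exons every MAARS gapmeR library lay below every control, the closest pair at 81.1 and 81.3%. With the longest transcript lengths the share of Ccnd1 was 77.5 ± 4.41 and 66.6 ± 7.39% (SD, n = 4), and the groups overlapped. Over all exons the share of Ccnd3 was 11.01 ± 2.95 and 17.4 ± 5.18% and that of Ccnd2 4.10 ± 0.933 and 6.17 ± 1.43% (SD, n = 4), both with overlap. Among the 4 inhibitors the share of Cdkn2c was 38.8 ± 4.63% in the controls and 47.9 ± 2.15% after MAARS knockdown (SD, n = 4). For Cdkn2d it was 31.6 ± 2.71 and 25.4 ± 1.57%, and for Cdkn1c 5.67 ± 2.14 and 2.38 ± 0.281% (SD, n = 4). None of these shares overlapped between groups, where 42.1% of all genes tested did not overlap in CPM. The shares add up to a fixed total, so a larger share of 1 gene means a smaller share for the rest. The CPM of Cdkn2d was higher on average after MAARS knockdown (18.2 and 21.1 CPM, with overlap) although its share was lower. The closest control and MAARS gapmeR libraries were at 44.7 and 45.05% for Cdkn2c and at 2.87 and 2.79% for Cdkn1c, whose CPM overlapped. The share of Cdkn1b was 23.9 ± 4.16 and 24.3 ± 3.004% (SD, n = 4). Summed over the 4 inhibitors, the level was 44.4, 39.7, 31.4 and 32.5 CPM per kilobase in the controls and 50.9, 57.9, 50.8 and 51.2 after MAARS knockdown. Summed over the 3 cyclins it was 42.7, 27.4, 37.0 and 44.4 against 16.6, 30.0, 23.6 and 26.4. The summed inhibitors thus separated the groups and the summed cyclins did not. Inhibitor to cyclin transcripts, as a ratio of these sums, came to 1.04, 1.45, 0.849 and 0.731 in the controls and to 3.07, 1.93, 2.15 and 1.94 after MAARS knockdown, and with the longest transcript lengths the mean was 0.788 and 1.67. The sum of Cdk4 and Cdk6 was 41.65 ± 2.70 and 40.9 ± 1.82 CPM per kilobase (SD, n = 4). These shares and sums are descriptions of transcripts, given with no test, and say nothing of protein.

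**Figure D4:**
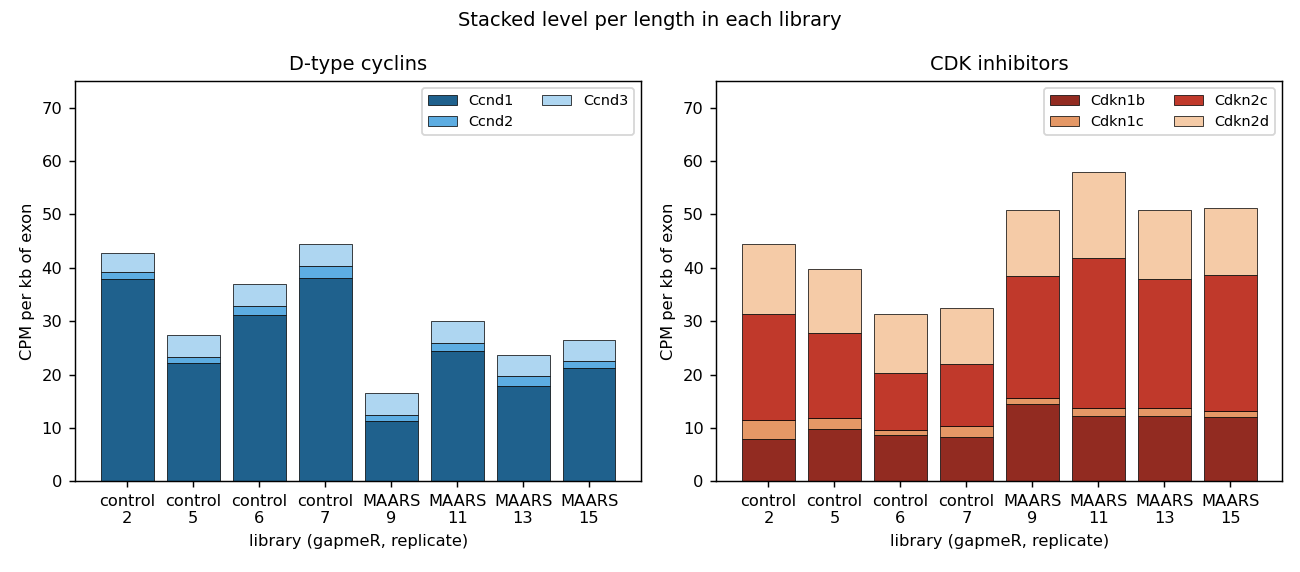
Stacked CPM per kilobase of exon (y axis, from 0) of the D-type cyclins (left) and of the listed CDK inhibitors (right) in each of the 8 libraries (x axis, gapmeR and replicate). The inhibitor stacks reach 31.4 to 44.4 in the controls and 50.8 to 57.9 after MAARS knockdown, and the cyclin stacks, mostly Ccnd1, 27.4 to 44.4 and 16.6 to 30.0.

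Further along the pathway lie the genes between the D-type cyclin kinases and S phase. Of 12 relatives of Rb1, E2F factors and their DP partners, 3 rose, 1 fell and 8 did not pass (median log2 fold change 0.02), where 45.4% of all genes were called. At an unadjusted p under 0.05 there were 8 of the 12, against 6889 of all 13051 genes. Tfdp2, an E2F dimerization partner, rose by 0.66 on the log2 scale (adjusted p = 2.25e-05 from edgeR). E2f2, an activating E2F, rose by 0.49 (adjusted p = 0.0192 from edgeR) but did not pass without control replicate 6 (0.38), control replicate 7 (0.44) or MAARS gapmeR replicate 11 (0.41). Rbl1, encoding the pocket protein p107, fell by 0.32 on the log2 scale (adjusted p = 0.0271 from edgeR). It did not pass with upper-quartile factors or without control replicate 2 or 7 or MAARS gapmeR replicate 9, 13 or 15, with values from -0.32 to -0.24. E2f7, a repressive E2F and the third that rose, was at 0.76 and is named after its values were seen. The 3 genes that rose became 1, Tfdp2, without control replicate 6 or 7 or MAARS gapmeR replicate 11. Upper-quartile factors called 5 of the 12 higher, and without MAARS gapmeR replicate 11 the number called lower was 2. Of 7 genes for cyclin E, CDK2, its phosphatase Cdc25a and the CDK-activating kinase, none passed in edgeR, DESeq2 or limma-voom, with 0 at an unadjusted p under 0.05 in edgeR and log2 fold changes from -0.11 to 0.08. Ccnh, Cdk7 and Mnat1, the parts of the CDK-activating kinase, were at -0.07, -0.06 and -0.07.

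Genes that set the stability of G1 proteins went both ways. The list held 11 genes for ubiquitin ligase parts, chaperones and other factors that act on cyclins, CDKs and their inhibitors. Of them 4 rose, 2 fell and 5 did not pass (median 0.02), where 45.4% of all genes tested were called. Cks1b, which with SKP2 marks p27Kip1 for destruction, rose by 0.80 on the log2 scale (adjusted p = 0.000713 from edgeR), while Skp2 itself was at -0.04. Fzr1, the CDH1 activator of the anaphase-promoting complex, rose by 0.47 (adjusted p = 0.000101 from edgeR). Fbxo4, an F-box protein linked to cyclin D1 turnover, fell by 0.42 on the log2 scale (adjusted p = 0.000699 from edgeR). The other three called, named after their values were seen, were Fbxo31 (0.32), Cul1 (0.11) and Skp1a (-0.11). Only 1 of the 2 that fell was still called without control replicate 2 or 5 or MAARS gapmeR replicate 9, 11 or 15. The number called lower was also 1 with upper-quartile factors and without the filter on low counts. The number called higher was 3 without that filter, and with any library left out other than MAARS gapmeR replicate 15. The products of the 5 MuvB genes form, with p130 and E2F4, the DREAM repressor of the cell cycle. Of these genes Lin54 (0.35) and Rbbp4 (0.16) rose and Lin9 (-0.41) fell, at adjusted p of 0.00999, 0.0203 and 0.0017 from edgeR. Over all genes tested the share called was 45.4%. Rbbp4 did not pass without control replicate 6 or 7 or MAARS gapmeR replicate 13 (0.13 to 0.15), and a 2nd MuvB gene was called lower without MAARS gapmeR replicate 9.

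Beyond G1, the S phase genes were mixed and the genes of G2 and mitosis rose together. Of 20 E2F target genes of S phase, 5 rose, 1 fell and 14 did not pass (median 0.05), where 45.4% of all genes tested were called. The summed level of the 20 overlapped between groups, at 862 to 1240 CPM in the controls and 873 to 1260 CPM after MAARS knockdown. Tk1, a thymidine kinase, rose by 0.94 and Ccna2, encoding cyclin A2, by 1.00 (adjusted p = 0.00204 for both, from edgeR), while Cdt1, a replication licensing factor, fell by 0.69 on the log2 scale (adjusted p = 0.00153 from edgeR). The others that rose, named after their values were seen, were Rrm1 (0.47), Rrm2 (0.80) and Pola1 (0.45), and a 2nd gene was called lower without MAARS gapmeR replicate 11. Of 15 genes of G2 and mitosis, all 15 rose, by 0.53 to 1.53 (median 0.87), where 21.3% of all genes tested did. In 12 of the 15 the groups did not overlap, against 42.1% of all genes tested. Ccnb2, encoding cyclin B2, rose by 1.53, the proliferation marker Mki67 by 1.01 and the kinetochore gene Cenpf by 1.11 (adjusted p = 0.000499, 0.000676 and 0.000926 from edgeR). The inhibitor genes Cdkn1b and Cdkn2c and the genes of mitosis were thus higher in the same libraries.

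**Figure D5:**
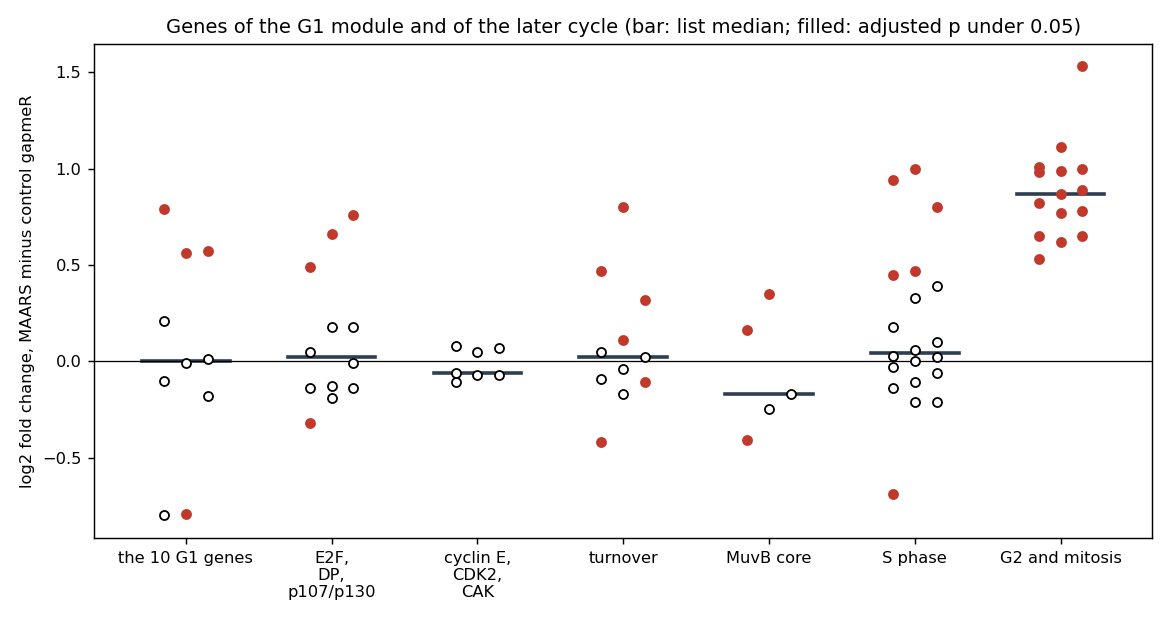
The log2 fold change (y axis, MAARS gapmeR minus control gapmeR) of each gene in the list of 10 G1 genes and in 6 lists along the cell cycle, filled where edgeR's adjusted p was under 0.05, with a bar at each list's median. The medians of the S phase list (0.05) and of the earlier lists lie between -0.17 and 0.05, and all 15 points of the G2 and mitosis list lie at 0.53 or above.

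FOXO factors are known activators of Cdkn1b transcription. Foxo3 rose from 96.0 ± 11.3 to 148.7 ± 19.5 CPM (SD, n = 4), or 0.63 on the log2 scale (edgeR adjusted p = 0.000365). Foxo1 (0.03) and Foxo4 (0.13) did not pass. The part of FOXO factors in the change of Cdkn1b was not tested. TGTTTAC occurs in 3.17% of all promoter windows, so its absence from the Cdkn1b window shown is what most windows share. Around Cdkn1c, 6 of 8 genes of its imprinted domain were tested, and 3 rose, 1 fell and 2 did not pass (median 0.39). Of all genes tested, 45.4% were called. Cd81, a tetraspanin, rose by 0.51 (adjusted p = 0.00428) and Tspan32 by 0.63 (adjusted p = 0.0104), both from edgeR. Kcnq1, a potassium channel gene, rose by 2.38 (adjusted p = 0.00105 from edgeR) from a mean of 0.182 CPM. Nap1l4, named after its values were seen, fell by 0.16 on the log2 scale. Kcnq1ot1, the antisense RNA that silences the domain on the paternal copy, was at 0.15 without passing. Cdkn1c itself did not pass, and the part of the domain in its values was not tested. Elavl1 itself was at 46.9 ± 0.831 and 48.0 ± 2.40 CPM (SD, n = 4; log2 fold change 0.03, adjusted p = 0.614 from edgeR).

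For each gene the most similar profile among all genes tested was sought by Pearson's r of log2 CPM over the 8 libraries. These r describe points that share the group difference, and the highest r among 13051 genes is high in any case. Cdkn2c was nearest to Cdca3 (r = 0.998), a gene of mitotic entry, which rose by 0.97 (adjusted p = 0.00165 from edgeR). Cdkn1b was nearest to Mxd4 (r = 0.995), a MAX-binding repressor, which rose by 0.87 (adjusted p = 5.36e-05 from edgeR), and Rb1 to Ski (r = 0.995), a SMAD corepressor, which rose by 0.29 (adjusted p = 0.000212 from edgeR). Ccnd1 was nearest to Nolc1 (r = 0.983), a nucleolar phosphoprotein, which fell by 0.40 on the log2 scale (adjusted p = 0.00699 from edgeR). The genes nearest to the 6 others did not pass the test, namely Prdm16 for Ccnd2 (r = 0.973), Notch4 for Ccnd3 (r = 0.915), Rpa2 for Cdk4 (r = 0.966), Zw10 for Cdk6 (r = 0.975), Ttc27 for Cdkn1c (r = 0.985) and Eif4g1 for Cdkn2d (r = 0.959).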

How the data were processed

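RNA-Seq was performed on ribodepleted RNA of 8 BMDM cultures. The authors trimmed reads (Trimmomatic 0.36), aligned them to mm10 (GRCm38) with Ensembl release 79 transcripts using STAR 2.5.2b, and counted them per gene with featureCounts (Subread 1.5.2). The deposited values are raw counts, 1 column per library. Strand setting and treatment of multimapping reads are not given in the sources used here. Libraries were grouped by label. Totals were 19287279 to 24541205 counts per library. Replicates differed by a chi-square of 4.02 to 14.1 per gene, above sampling noise, so all 8 libraries were kept apart.

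Genes passing filterByExpr (minimum count 10, minimum total 15) were fitted with edgeR 4.0.16 in R 4.3.3 (TMM, quasi-likelihood, Benjamini-Hochberg over 13051 genes). Standard errors are the absolute log2 fold change over the square root of F. Paralog ratios used a prior count of 0.5. Annotation came from GENCODE M21, which held 99.47% of the genes. The alternatives were RLE and upper-quartile factors, DESeq2 1.42.0, limma-voom (limma 3.58.1), other count filters, raw ratios, other lengths and each library left out. The genes and lists were chosen with earlier results of these data known. Named are the 10 genes, MAARS, Elavl1, the 3 lowest p of each pathway list, and the most similar gene to each of the 10. Overlapping genes, cell type markers, Skp2, Kcnq1ot1 and the genes marked so in the text were named after their values were seen. No pathway list was tested as a set.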

Additional observations from a re-analysis of the deposited data

Results flagged for a closer look

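Among 46 named genes in both groups of 4 libraries (92 groups), 5 libraries stood apart from the other 3 of their group by Dixon's criterion, and chance alone flags about 1 in 20 groups. Ccnd3 was at 31.3 CPM in control replicate 2, against 36.1 to 36.8 CPM in the other controls. Cdkn1b was at 65.8 CPM in MAARS gapmeR replicate 9, against 54.5 to 56.1 CPM in the others. Cdkn2d was at 25.1 CPM in MAARS gapmeR replicate 11, against 19.4 to 20.3 CPM. Mnat1 was at 14.8 CPM in control replicate 5, against 16.4 to 16.6 CPM, and Kcnq1 at 1.37 CPM in MAARS gapmeR replicate 9, against 0.78 to 0.873 CPM.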

How the results depend on the processing

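Ccnd1, Cdkn1b, Cdkn2c and Rb1 kept direction and call in all 14 alternatives. The number of the 10 G1 genes called lower was 2 with DESeq2 (Cdkn1c added), 3 without a filter (Cdk6 and Cdkn1c added), and 1 to 2 with a library left out. Genes near 0 changed sign without passing in any case. With a library left out, Ccnd2 ranged from -0.27 to 0.14, Ccnd3 from -0.06 to 0.01, Cdk4 from -0.03 to 0.06, Prdm16 from -0.33 to 0.08, Notch4 from -0.49 to 0.08, Rpa2 from -0.19 to 0.09 and Foxo1 from -0.03 to 0.08. Ccnd2 was 0.14 without control replicate 7 and 0.01 without MAARS gapmeR replicate 9. Ccnd3 was 0.05 with upper-quartile factors, and 0.0091, 0.0062 and 0.01 without control replicate 6, control replicate 7 and MAARS gapmeR replicate 15. Cdk4 was -0.0046, -0.03 and -0.0057 without control replicate 5, control replicate 6 and MAARS gapmeR replicate 11. Others that did so were Cdk7 (0.0056, upper-quartile factors), Foxo1 (-0.03), Prdm16 (0.08), Notch4 (0.08 and 0.05) and Rpa2 (0.09). Upper-quartile factors moved the median of all genes from 0.008 to 0.071, the largest shift among the alternatives.

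With a library left out, paralog differences ranged from -0.88 to -0.59 for Ccnd1 to Ccnd2, -0.99 to -0.57 for Ccnd1 to Ccnd3, -0.26 to 0.13 for Ccnd2 to Ccnd3, 0.16 to 0.26 for Cdk4 to Cdk6, 0.87 to 1.56 for Cdkn1b to Cdkn1c and 0.52 to 0.73 for Cdkn2c to Cdkn2d. Ccnd2 to Ccnd3 changed sign at 0.13 and 0.09. The exact p became 0.0286, the smallest that 3 against 4 allow, for Ccnd1 to Ccnd2 (-0.88), Ccnd1 to Ccnd3 (-0.99), Cdk4 to Cdk6 (0.26) and Cdkn1b to Cdkn1c (1.56), without MAARS gapmeR replicate 15, control replicate 5, MAARS gapmeR replicate 11 and control replicate 6. For Cdkn2c to Cdkn2d it was 0.0571 without any 1 MAARS gapmeR library (0.58 to 0.66), though the groups still did not overlap. With these unequal groups a relabelling in the opposite direction also reached the observed difference, which raised the exact p. The causes of the other shifts were not tested. No paired analysis was possible because the groups share no replicate number. Cdkn1c, with 34 to 142 counts per library, had the fewest counts of the 10 G1 genes.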
